A study of Mus musculus with 16 samples.

Results

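Ppp1r1b, Adora2a, Rgs9, Pde10a, Gpr6, Rarb and Syndig1l are 7 genes known for high levels in the projection neurons of the striatum. They were taken by symbol from a table of 23284 genes measured in 16 RNA-seq libraries of mouse prefrontal cortex (PFC), and all 7 were among the 13978 genes with enough signal to test. Syndig1l stands in the table under its older symbol, Tmem90a. The genes were chosen to read how much striatal RNA each library of this cortical tissue held.

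The libraries came from 4 genotypes with 4 libraries each, all from young adult mice of both sexes. APC cKO mice carried 2 floxed alleles of Apc, which encodes a scaffold of the complex that marks β-catenin for destruction. β-cat cOE mice carried 1 allele of Ctnnb1, the β-catenin gene, whose floxed exon 3 is lost on recombination, leaving a stabilized protein. APC/β-cat cKO mice carried floxed alleles of both genes. All 3 lines also carried CamKIIα-Cre, which is expressed mainly in excitatory neurons of the forebrain, whereas controls were Cre-negative littermates pooled from the lines. Whether this Cre also recombines in the GABAergic projection neurons whose genes are described here was not tested. Libraries are named by genotype and replicate, numbered in the order of deposit. Nothing in the sample descriptions says how the tissue was cut or whether a library pooled animals, so the p-values measure the spread between these libraries.

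Striatal projection neurons are GABAergic cells that receive cortical and thalamic glutamate and midbrain dopamine. They fall into a direct pathway class, with the D1 dopamine receptor, substance P and dynorphin, and an indirect pathway class, with the D2 dopamine receptor, an adenosine receptor and enkephalin. Dopamine and adenosine act in them through cyclic AMP and protein kinase A. The striatum lies beneath the frontal cortex, and cortical neurons express several of the same genes at lower levels.

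The members differ in their roles along this signalling route. Adora2a encodes that adenosine receptor and Gpr6 an orphan receptor, both of the indirect pathway class. Rgs9 encodes a regulator of G protein signalling that shortens dopamine receptor signals. Pde10a encodes a phosphodiesterase that breaks down cyclic nucleotides. Ppp1r1b encodes DARPP-32, the phosphatase inhibitor that protein kinase A switches on. Rarb encodes a retinoic acid receptor, a transcription factor of striatal development, and Syndig1l a membrane protein of the synapse differentiation-inducing family.

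RefSeq promoter sequences (build GRCm38.p6, the same genome as the mm10 build of the table) were at hand for 4 of the 7 genes, namely Gpr6, Rgs9, Rarb and Pde10a, the last with 2 start sites. The 250 bases before the start of Gpr6 and Rarb are shown because each holds a motif named after a signal of the members' own routes, cyclic AMP for Gpr6 and retinoic acid for Rarb. In the Gpr6 line the capitals mark TGACGTCA, the cAMP response element. In the Rarb line they mark a pair of GTTCAC half-sites separated by 5 bases, the layout of a retinoic acid response element; this last pattern was added to the search after the sequence was read. Gpr6 lies on the minus strand of chromosome 10 and the bases shown are chr10:41072291-41072540. Rarb lies on the minus strand of chromosome 14 and the bases shown are chr14:16575477-16575726.
Gpr6: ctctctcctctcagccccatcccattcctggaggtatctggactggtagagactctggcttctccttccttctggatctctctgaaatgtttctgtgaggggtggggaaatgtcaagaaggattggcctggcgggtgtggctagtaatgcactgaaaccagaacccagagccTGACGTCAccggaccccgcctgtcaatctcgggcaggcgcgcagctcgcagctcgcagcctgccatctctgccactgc
Rarb: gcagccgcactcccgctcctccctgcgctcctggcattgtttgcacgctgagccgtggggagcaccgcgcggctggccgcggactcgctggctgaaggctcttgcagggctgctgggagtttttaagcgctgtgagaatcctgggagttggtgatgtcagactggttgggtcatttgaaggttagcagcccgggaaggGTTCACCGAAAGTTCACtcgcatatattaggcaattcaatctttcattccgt

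Searched on both strands in windows of 250 bases before to 50 after the start, TGACGTCA stood in 1 of the 5 member windows and in 1.79% of 32851 RefSeq promoters. The spaced GTTCAC pair stood in 2 promoters of all those searched, 0.00609%, of which Rarb was 1. The Rgs9 window held TATAAA, found in 13.6% of promoters, CAGCTG, an E-box found in 16.3%, and GGGCGG, a GC box found in 35.7%. Both Pde10a windows held GGGCGG, and 1 of them CAGCTG. Matches to TGAGTCA (AP-1, 5.20% of promoters), AGGTCA (nuclear receptor half-site, 16.3%), GTAAACA (forkhead, 3.65%) and CTTTGAT (TCF/LEF, the factors that act with β-catenin, 3.73%) were not in the 5 member windows. These are matches of letters, and none was tested for binding. The gene models of the table begin elsewhere than these RefSeq starts for Gpr6 and Rarb, so the levels below need not come from these starts alone.

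Levels are given in FPKM, fragments per kilobase of transcript scaled to the size of the library, recovered from the deposited log2 values. The depth of the libraries is unknown, between 5726 and 6649 genes were listed at 0 in a library, and correlations between libraries over all tested genes ran from 0.961 to 0.984. Apc, the deleted gene, was lower in APC cKO (log2 fold change -1.95, adjusted p = 2.40e-04) and in APC/β-cat cKO (-2.14, adjusted p = 3.35e-05) by limma, a linear model over all genes with Benjamini-Hochberg adjustment. Ctnnb1 was not called in any line.

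Adora2a, the adenosine receptor, was present in every library but over a wide range. In controls it stood at 14.6, 3.88, 0.817 and 0.814 FPKM in replicates 1 to 4. In APC cKO it stood at 1.41, 5.65, 20.3 and 5.64 FPKM. In β-cat cOE the values were 1.11, 3.82, 2.06 and 8.51 FPKM, and in APC/β-cat cKO 1.23, 1.09, 3.79 and 12.6 FPKM. Each genotype thus held 1 library far above its lowest, and all 4 ranges overlapped. The highest library, APC cKO 3, stood 24.99 times above the lowest, Control 4.

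Gpr6, the second receptor of the indirect pathway class, varied most in proportion. Its controls read 4.53, 2.40, 0.356 and 0.215 FPKM. Its APC cKO libraries read 0.332, 2.82, 7.75 and 2.32 FPKM. The β-cat cOE libraries read 0.922, 1.63, 1.40 and 3.05 FPKM and the APC/β-cat cKO libraries 0.477, 0.421, 2.11 and 5.53 FPKM. The same library was highest in each genotype as for Adora2a, and the highest of all was 36.02 times the lowest.

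Rgs9, the G protein regulator, followed the receptors at a higher level. Controls held 25.3, 11.1, 4.96 and 3.76 FPKM of Rgs9, and APC cKO held 7.25, 15, 33.4 and 12.9 FPKM. In β-cat cOE Rgs9 stood at 5.89, 10.9, 7.11 and 18.5 FPKM, and in APC/β-cat cKO at 6.54, 6.06, 12.2 and 23.8 FPKM. Its range over all libraries was 8.88-fold, with the genotypes again overlapping.

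Pde10a and Ppp1r1b, enzymes and effectors downstream of the receptors, had the higher floors. Pde10a stood at 31.98, 14.2, 8.83 and 9.67 FPKM in controls, 9.27, 19.7, 36.2 and 16.3 in APC cKO, 10.1, 15.3, 10.8 and 19.3 in β-cat cOE, and 14.8, 7.61, 18.8 and 20.3 in APC/β-cat cKO. Ppp1r1b stood at 172, 85.1, 51.2 and 49.5 FPKM in controls, 50.9, 108, 222 and 89.7 in APC cKO, 41.2, 82.8, 66.4 and 116 in β-cat cOE, and 70.3, 56.5, 92.4 and 166 in APC/β-cat cKO. Their ranges were narrower than those of the receptors, 4.76-fold for Pde10a and 5.39-fold for Ppp1r1b, and no genotype lay apart from another.

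Rarb, the retinoic acid receptor, had the narrowest range of the 7, 4.15-fold. It read 10.7, 4.67, 3.10 and 3.99 FPKM in controls, 4.41, 6.45, 12.9 and 6.82 in APC cKO, 3.29, 5.34, 4.27 and 7.97 in β-cat cOE, and 3.93, 4.18, 6.04 and 9.45 in APC/β-cat cKO. Syndig1l read 7.41, 2.78, 1.79 and 1.71 FPKM in controls, 4.36, 3.70, 8.02 and 3.35 in APC cKO, 2.31, 2.76, 1.57 and 3.99 in β-cat cOE, and 1.02, 2.98, 2.98 and 5.18 in APC/β-cat cKO. Syndig1l kept the same highest library in each genotype, but its order among the low libraries differed from that of the others: APC cKO 1, among the 7 lowest libraries for the other 6 members, was its 4th highest.

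**Figure D1:**
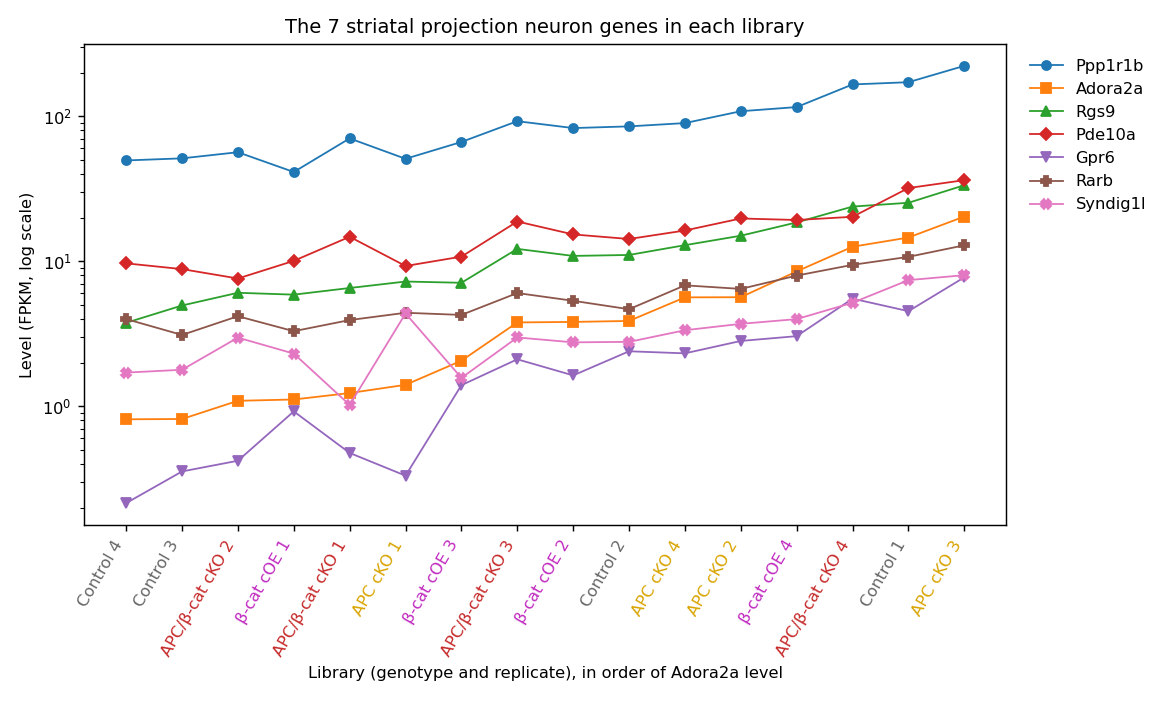
Level of each of the 7 genes (FPKM, log axis) in the 16 libraries, ordered from left to right by Adora2a and labelled by genotype and replicate, with 1 coloured line per gene. The lines climb together from Control 4 to APC cKO 3, most steeply for Gpr6 and Adora2a, with Syndig1l departing from the others at APC/β-cat cKO 1 and APC cKO 1.

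All 7 genes were highest in APC cKO 3, and in the other genotypes all 7 were highest in Control 1, APC/β-cat cKO 4 and β-cat cOE 4. The lowest library of the 16 was Control 4 for Adora2a, Rgs9 and Gpr6, Control 3 for Rarb, β-cat cOE 1 for Ppp1r1b, APC/β-cat cKO 2 for Pde10a and APC/β-cat cKO 1 for Syndig1l. High and low libraries of these genes therefore occurred within single genotypes, controls included.

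In mean level over the 16 libraries the order was Ppp1r1b (94.97 FPKM), Pde10a (16.4), Rgs9 (12.8), Rarb (6.10), Adora2a (5.46), Syndig1l (3.49) and Gpr6 (2.27). Ppp1r1b exceeded Pde10a in 16 of 16 libraries, by 4.10- to 8.18-fold. Pde10a exceeded Rgs9 in 15 of 16, Rgs9 exceeded Rarb in 15 of 16, and Syndig1l exceeded Gpr6 in 15 of 16. The middle of the order was less fixed: Rarb exceeded Adora2a in 12 of 16 libraries and Adora2a exceeded Syndig1l in 11 of 16, so neither of these neighbours was separated beyond the spread between libraries.

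The spread between libraries of 1 genotype was far above that of most genes. The within-genotype SD on the log2 scale was 1.59 for Adora2a, 1.56 for Gpr6, 0.959 for Rgs9, 0.771 for Syndig1l, 0.760 for Ppp1r1b, 0.699 for Pde10a and 0.630 for Rarb. The median over all tested genes was 0.146. Each member had a larger SD than 98.4% to 99.4% of genes of similar mean level.

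Whether the genotypes differed in these genes was asked with limma in 6 contrasts. No member was called at an adjusted p under 0.05: 0 of 7 in APC cKO against controls, where 0.0429% of all tested genes were called, 0 of 7 in β-cat cOE against controls (0.0143% of all genes), and 0 of 7 in APC/β-cat cKO against controls (0.207%). The count was also 0 of 7 in APC cKO against APC/β-cat cKO (0.215% of all genes), in β-cat cOE against APC/β-cat cKO (0.229%), in APC cKO against β-cat cOE (0.0429%), and in the test of any difference among the 4 genotypes (0.25%). At an unadjusted p under 0.05 the count was 0 of 7 in each of the 6 contrasts, where 5.07% to 14.2% of all tested genes had such a p, so that 0 of 7 was near the background here too. With the number in the sample titles as a replicate block, APC cKO against β-cat cOE called 1 gene of the table in place of 6, and 0 of 7 members. With so few genes called in any contrast, a count of 0 of 7 is near the background. By exact two-sided permutation of 4 against 4 libraries, whose smallest possible p is 0.0286, the 42 tests of a member in a contrast gave p from 0.0857 to 1.0, with adjusted p of 0.994 or more, and the groups overlapped in 42 of 42.

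The confidence intervals were wide, as the plot of changes against controls shows. In APC cKO all 7 members had higher means than in controls, with log2 fold changes from 0.37 to 1.09 (median 0.67, against -0.00421 for all tested genes), and none passed the test. The members rose and fell together over the libraries, as described below, so these 7 changes are not independent. Adora2a stood at 8.26 ± 8.30 FPKM (SD, n = 4) in APC cKO and 5.02 ± 6.53 in controls, a log2 fold change of 1.09 with a 95% confidence interval from -0.998 to 3.19 (limma adjusted p = 0.732). Ppp1r1b stood at 118 ± 73.7 FPKM (SD, n = 4) in APC cKO and 89.4 ± 57.2 in controls, a log2 fold change of 0.39 with an interval from -0.61 to 1.39 (limma adjusted p = 0.805). Without APC cKO 3 the median of the 7 changes was 0.35, and without Control 1 it was 1.12, with 0 of 7 called either way.

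In β-cat cOE 3 members had higher and 4 lower log2 means than controls, from -0.16 for Syndig1l to 0.58 for Gpr6, with a median of -0.0148. In APC/β-cat cKO 6 were higher and 1 lower, from -0.0986 for Syndig1l to 0.29 for Gpr6, with a median of 0.17. The intervals reached 0.836 on either side of the estimate for Rarb, the tightest, and 2.09 for Adora2a, the widest. A change in Adora2a of up to 4.26-fold in either direction from its estimate thus lay within the error of 4 libraries a genotype, and for Rarb one of up to 1.78-fold. These intervals do not show that the genotypes are alike in the members.

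**Figure D2:**
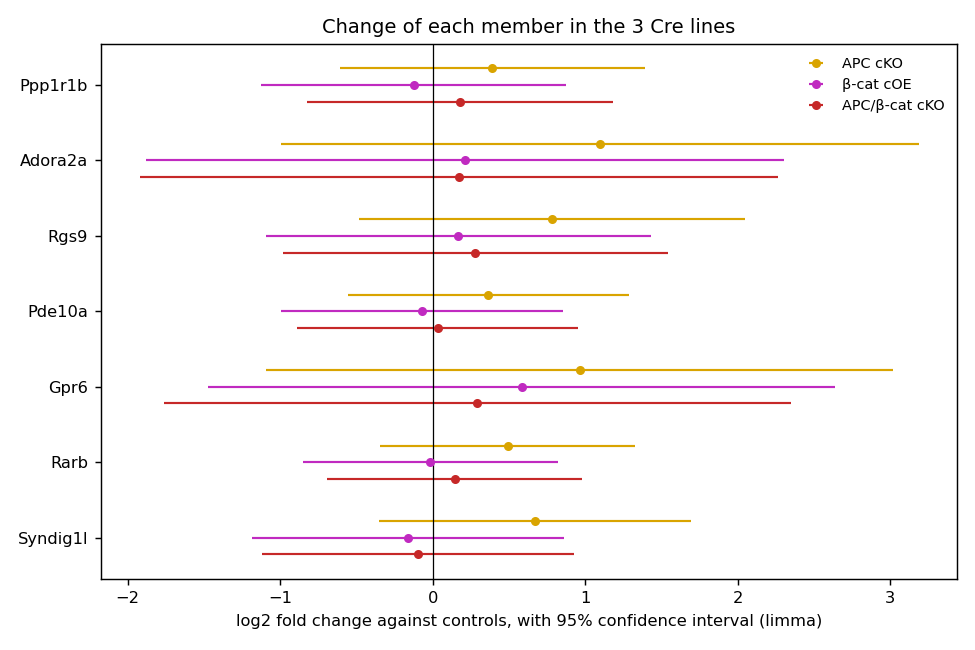
log2 fold change of each gene in the 3 Cre lines against controls, as points with 95% confidence intervals from limma (n = 4 libraries a genotype), with a vertical line at 0. Every interval includes 0, and those of Adora2a and Gpr6 are about as wide as 4 units of log2.

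The members rose and fell together over the libraries. The 21 pairs had Pearson's r from 0.681 to 0.989 on the log2 scale over 16 libraries (median 0.924) and Spearman's rho from 0.653 to 0.985 (median 0.921). By permutation of the libraries, two-sided, adjusted over the 21 pairs, all 21 passed 0.05, the largest adjusted p being 0.00392 for r and 0.00773 for rho. Taken as deviations from the genotype means the 21 values of r ran from 0.654 to 0.992, with permutation within genotypes giving an adjusted p of 0.0226 at most. In bulk tissue, more cells of a type and more RNA per cell cannot be told apart.

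Adora2a and Rgs9 were the closest pair, with r = 0.989 and rho = 0.985, followed by Adora2a with Rarb and with Ppp1r1b (both r = 0.966), Ppp1r1b with Rgs9 (r = 0.963) and with Rarb (r = 0.962), and Adora2a with Gpr6 (r = 0.960). The 15 pairs without Syndig1l had r from 0.875 to 0.989, and the 6 pairs with it from 0.681 to 0.846. The loosest pair was Pde10a with Syndig1l, r = 0.681. With the 2 libraries farthest from the median left out, the 15 pairs without Syndig1l still had r from 0.833 to 0.992, whereas Pde10a with Syndig1l fell to 0.394 and Ppp1r1b with Syndig1l to 0.542, so these 2 relations rested largely on the extreme libraries.

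Members that varied less in proportion had a larger part of their level that did not vary with Adora2a, Syndig1l standing out of that order. Straight lines of FPKM on Adora2a over the 16 libraries, given as a description, took up from 84.0% of the variance for Syndig1l to 98.3% for Rgs9. Where lines fit this closely, a narrower fold range goes with a larger intercept by arithmetic, so that order is no separate result. For Ppp1r1b each FPKM of Adora2a went with 8.80 ± 0.373 (SE) FPKM, and the line met 0 Adora2a at 46.9 ± 2.92 FPKM, which is 55.9% of its median level. The corresponding intercepts were 9.20 FPKM for Pde10a (61.2% of its median), 3.44 for Rarb (68.8%), 1.78 for Syndig1l (59.8%) and 4.81 for Rgs9 (43.8%). Gpr6 met 0 Adora2a near 0, at 0.303 ± 0.170 FPKM, 16.2% of its median. Without the 2 highest libraries the intercept of Ppp1r1b was 45.0 FPKM and that of Gpr6 0.152 FPKM.

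**Figure D3:**
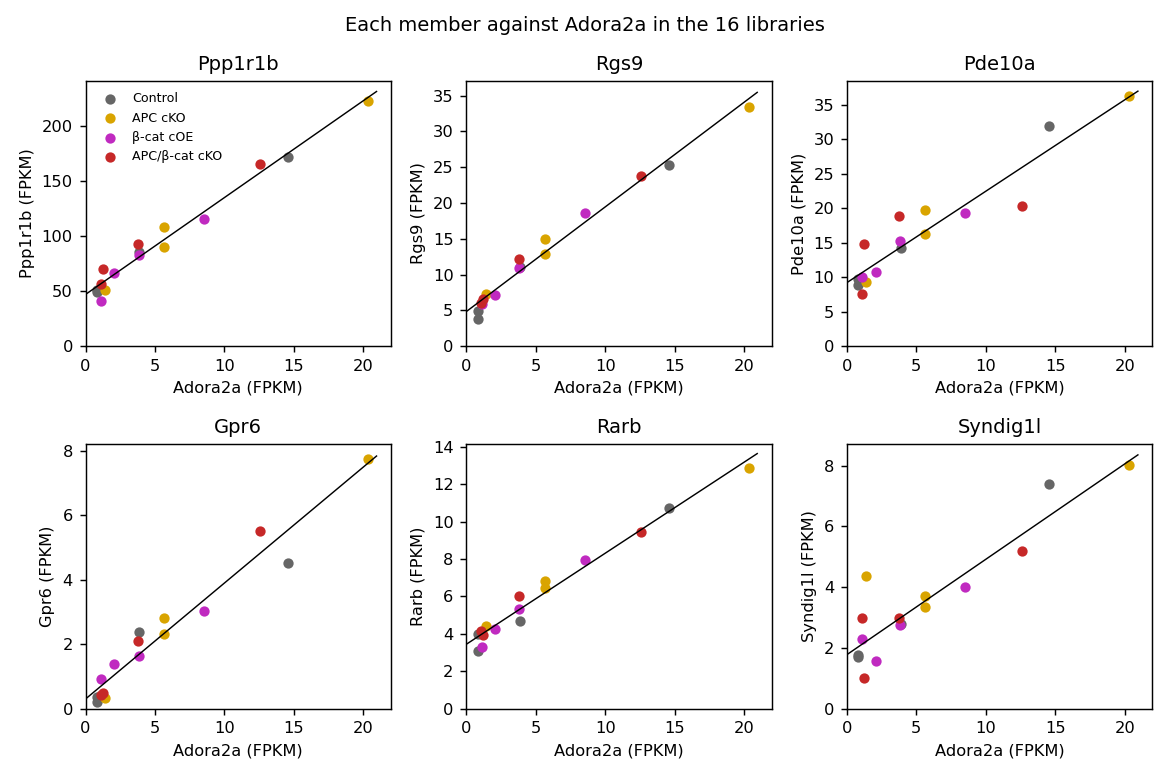
The other 6 genes (FPKM, vertical axes) against Adora2a (FPKM, horizontal axes), with 1 point per library coloured by genotype and the least-squares line over 16 libraries. Points of the 4 genotypes lie close to the line for Ppp1r1b, Rgs9, Rarb and Gpr6. They scatter more for Pde10a and Syndig1l, where the line takes up 89.0% and 84.0% of the variance. The line for Ppp1r1b starts at 46.9 FPKM and that for Gpr6 at 0.303 FPKM.

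The share of receptor to effector RNA shifted along the same order, which follows by arithmetic from the intercept of Ppp1r1b and is no separate result. Adora2a stood at 9.14% of the Ppp1r1b level in APC cKO 3 and at 8.50% in Control 1, but at 1.596% in Control 3 and 1.64% in Control 4. Drd1 and Drd2, the dopamine receptors of the direct and indirect pathway classes, both followed the members. Drd1 ran from 1.79 to 19.2 FPKM and Drd2 from 0.354 to 15.4 FPKM, each highest in APC cKO 3. On Adora2a, the Drd2 line met 0 at 0.164 ± 0.330 FPKM and the Drd1 line at 2.57 ± 0.345 FPKM.

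The genes with the most similar pattern were sought among 12893 genes whose mean reached 1 FPKM, by Pearson's r with the mean of the 7 standardized members over 16 libraries. Among the 10 highest were Serpina9 (r = 0.985), Gng7 (0.980), Adcy5 (0.975), Lrrc10b (0.971), Pde1b (0.969), Drd2 (0.966), Tac1 (0.959), Drd1 (0.957) and Rxrg (0.952). Gng7 and Adcy5 encode the G protein subunit and the adenylyl cyclase through which dopamine and adenosine receptors act in the striatum, and Tac1 the precursor of substance P. Of the 10 highest by deviations from genotype means, 8 were the same genes. Over all 13971 tested genes outside the 7, 0.508% had r of at least 0.8 and the median r was -0.0131.

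Of 54 other striatal genes, in 4 lists of signalling genes, direct pathway genes, indirect pathway genes and transcription factors, 51 were tested and 22 had r of at least 0.8 with the members. Among the signalling genes 12 of 24 did, with Rasd2, Ptpn5 and Arpp21 at 0.854, 0.898 and 0.860. Among the direct pathway genes Drd1, Tac1, Isl1 and Pdyn did, 4 of 10, Pdyn at 0.941 being the precursor of dynorphin. Among the indirect pathway genes Drd2 and Penk, the precursor of enkephalin at 0.936, did, 2 of 7. Among the transcription factors 5 of 13 did, Six3 highest at 0.963.

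Not every gene of these lists followed. Cnr1, the cannabinoid receptor, had r = -0.402, Rgs4 -0.283, Grik3 -0.258 and Chrm4, the M4 muscarinic receptor, 0.394, and each ranged less than 2-fold over the libraries. Others that did not follow ranged more widely, among them Sp9 (r = -0.215, 6.55-fold), Ttc12 (0.146, 7.04-fold) and Dlx5 (-0.101, 4.66-fold). Eya1 had the lowest r of the 4 lists, -0.536. No gene of the 4 lists was called in any of the 6 contrasts by limma, and at an unadjusted p under 0.05 there were 3 of 51 in APC cKO against controls (10.02% of all genes), 0 of 51 in β-cat cOE against controls (5.07%) and 5 of 51 in APC/β-cat cKO against controls (14.2%).

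**Figure D4:**
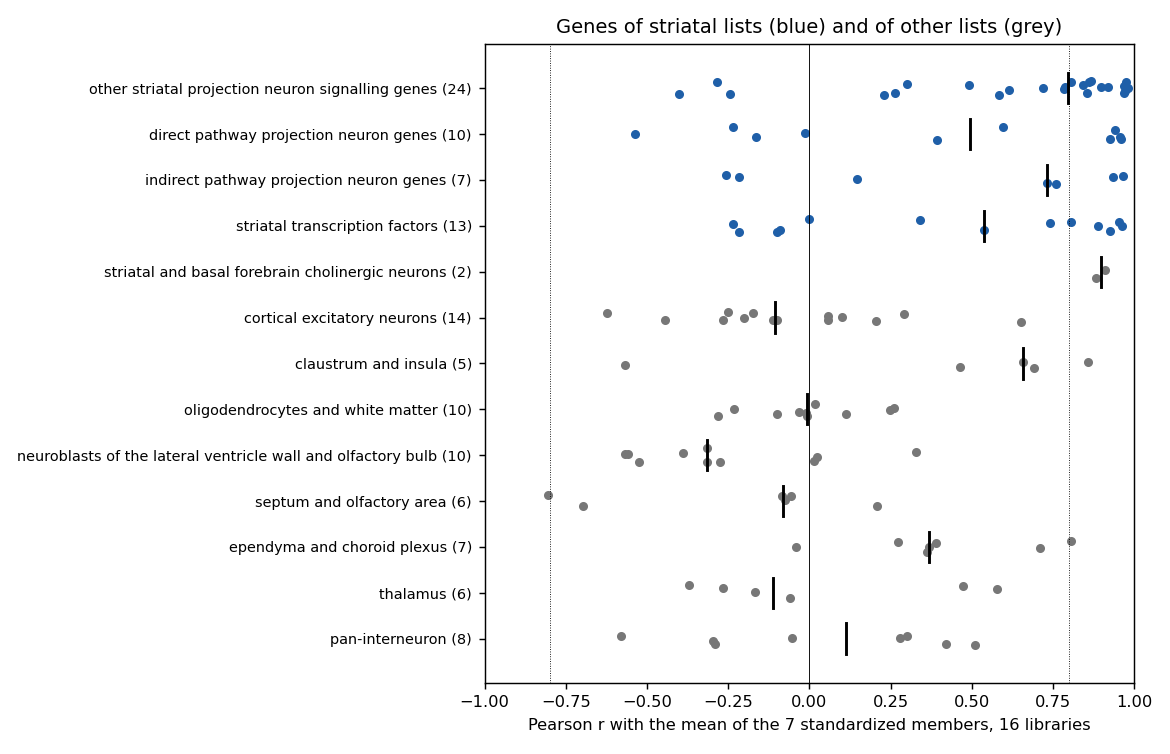
Pearson's r of each tested list gene with the mean of the 7 standardized members over 16 libraries (horizontal axis), by list with the number of genes in parentheses; black bars are list medians and dotted lines mark 0.8 and -0.8. Striatal lists (blue) hold 22 of 51 genes at 0.8 or above. Among the grey lists the cholinergic list holds 2 of 2, the claustrum list 1 of 5 and the ependyma list 1 of 7. The 14 cortical excitatory genes and the 10 oligodendrocyte genes (grey) hold none.

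Markers of other cells and areas were set beside the members. Both tested genes of cholinergic neurons followed them, Chat at r = 0.910 and Slc5a7 at 0.882. The summed level of the 6 cholinergic genes ran from 0.484 FPKM in APC/β-cat cKO 2 to 8.76 FPKM in APC cKO 3. Oprk1 of the claustrum list, the κ opioid receptor, had r = 0.859 and was 1 of 5 tested genes of its list at 0.8 or above. Gnb4 (r = 0.691), Nr4a2 (0.659) and Ntng2 (0.463) of the same list were also positive, and Synpr had r = -0.569. The median r of that list, 0.659, was above those of the direct pathway genes (0.494) and the striatal transcription factors (0.538). Clic6 was 1 of 7 tested genes of the ependyma list at that level, with r = 0.806, and Ttr of that list had r = -0.0402. These lists' part in the spread of the members was not tested.

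Markers of the labelled tissue were present in every library, with Slc17a7, the glutamate transporter of cortical excitatory neurons, at 395 to 532 FPKM. The 14 cortical excitatory genes summed to between 1435 and 1848 FPKM, lowest in APC cKO 3, the library highest in the members, and 0 of 14 had r beyond 0.8 in either direction. The sums lay from 1683 to 1769 FPKM in controls and from 1435 to 1807 in APC cKO. The median over the 16 libraries was 1682 FPKM, so Control 1, the control highest in the members, was not below it. APC cKO 1, low in most members, had Slc17a7 at 418 FPKM (median 481). Camk2a of the same list stood there at 583 FPKM (median 664). The 10 oligodendrocyte genes summed to between 719 and 1215 FPKM with r from -0.282 to 0.261, and the 8 genes of interneurons to between 847 and 1155 FPKM with r from -0.580 to 0.510.

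Genes opposite to the members were fewer: 0.107% of tested genes had r of -0.8 or lower. Cdhr1, a cadherin of olfactory bulb mitral and tufted cells, was among them at r = -0.806 and ran from 3.67 FPKM in Control 1 to 57.6 FPKM in β-cat cOE 1. Eomes, a transcription factor of the same cells, had r = -0.696, from 0.111 FPKM in APC cKO 3 to 10.5 FPKM in β-cat cOE 1. Both belong to the list of septum and olfactory area, where Cdhr1 was 1 of 6 tested genes at -0.8 or lower. The median r of that list was -0.0797, and its highest was 0.207 for Zic4. By the rule used above, the lowest were Laptm4b (r = -0.851), Stxbp6 (-0.851), Grm2 (-0.845), Astn2 (-0.839) and Atp1b2 (-0.833), and their levels varied less than those of the members: Laptm4b ran from 53.6 to 71.1 FPKM and Grm2, a metabotropic glutamate receptor, from 11.4 to 23.5 FPKM.

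When the mean of the standardized members was added to the linear model as a covariate, an alternative chosen after the data were seen, the number of genes called over the whole table moved in both directions. It went from 6 to 5 in APC cKO against controls, from 29 to 33 in APC/β-cat cKO against controls and from 32 to 49 in β-cat cOE against APC/β-cat cKO, with 5, 28 and 32 genes called in both fits. In APC cKO against APC/β-cat cKO it went from 30 to 24, with 22 called in both. It stayed at 2 in β-cat cOE against controls and at 6 in APC cKO against β-cat cOE. For any difference among the 4 genotypes it went from 35 to 32, with 30 called in both. Without Control 1, the control library highest in all 7 members, 43 genes were called in APC cKO against controls and 56 in APC/β-cat cKO against controls. Whether the member level of Control 1 has a part in these 2 counts was not tested.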

How the data were processed

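RNA was from freshly dissected PFC of 16 mouse samples, made into stranded poly(A) libraries. The authors aligned reads to mm10 with TopHat2 2.0.10 and estimated levels with Cuffdiff 2.1.1, per the labels. The authors deposited log2 values from 0 to 12.8, read here as log2(FPKM + 1); base and offset were inferred from the values and the processing described. No counts were used, so depth and counting error are unknown. Genotypes came from the labels, and those in the table's header matched in 16 of 16. Values were turned back to FPKM, and log2(FPKM + 0.1) of the 13978 genes whose mean reached 0.5 FPKM was fitted in limma 3.58.1 (R 4.3.3) over 4 genotypes with a trended prior and Benjamini-Hochberg adjustment over all genes. Fold changes are on this scale and understate those of low genes. Scripts were tested on simulated data. Exact permutation tests used 70 arrangements, and correlations 100000 resamples, in scipy 1.17.1. Promoters were RefSeq sequences. The members, gene lists and tests were chosen with earlier results of these data known, so no pattern here is independent support. Genes named by rule were the members, Apc, Ctnnb1, the 5 genes of highest mean in each list, and the 10 highest and 5 lowest by r; other list genes named were chosen after their values were seen. 1 gene that the rule names is not reported here. Several genes of the other-area lists also stand in the study's own lists from these libraries. Deviations of libraries with the same title number correlated at 0.322, 0.197 and 0.111 between APC cKO and β-cat cOE, whereas every other pair of genotypes had at least 1 correlation under 0.1. Libraries with different numbers were not compared in this way, so these values do not show that libraries were paired. The main tests used no pairing, and the block by title number was an alternative. Alternatives were other pseudocounts, filters and scalings, no trend, a replicate block, only the compared groups, and each library left out.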

Additional observations from a re-analysis of the deposited data

How the results depend on the processing

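The count of members called stayed at 0 of 7 in each of the 174 values recomputed under other pseudocounts, filters and scalings, no trend, a replicate block, only the compared groups and each library left out, and the other striatal lists stayed at 0 called in 181. All 21 pairs of members stayed under 0.05 in 19 alternatives, with the median r from 0.900 (without APC cKO 3) to 0.942. The library spread of Gpr6 was 0.953 with a pseudocount of 1, against 1.56.

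In APC cKO the 7 log2 changes, which are not independent, kept their sign in every alternative. Leaving out 1 library gave 0.0184 to 0.77 for Ppp1r1b, 0.48 to 1.92 for Adora2a, 0.39 to 1.30 for Rgs9 and 0.0345 to 0.76 for Pde10a. For Gpr6 it gave 0.35 to 1.75, for Rarb 0.21 to 0.85 and for Syndig1l 0.41 to 1.12. The lowest value came without APC cKO 3 for each member but Gpr6. In the other lines 36 of 350 single-gene values changed sign, each with 1 library left out. The lowest adjusted p among the 525 values of the 3 lines was 0.354. In β-cat cOE against controls, leaving out 1 library gave log2 changes from -0.35 to 0.25 for Ppp1r1b, -0.30 to 1.04 for Adora2a, -0.22 to 0.69 for Rgs9, -0.29 to 0.32 for Pde10a, -0.0329 to 1.26 for Gpr6, -0.24 to 0.35 for Rarb and -0.39 to 0.29 for Syndig1l. In APC/β-cat cKO the ranges were -0.12 to 0.56 for Ppp1r1b, -0.53 to 0.99 for Adora2a, -0.12 to 0.80 for Rgs9, -0.19 to 0.43 for Pde10a, -0.38 to 0.97 for Gpr6, -0.11 to 0.51 for Rarb and -0.41 to 0.35 for Syndig1l. The highest value came without Control 1 for all 7 in both lines.

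Over the whole table the number of genes called depended on single libraries and settings, and the cause was not tested. It ran from 2 (only the compared groups) to 43 (without Control 1) in APC cKO against controls, 1 to 3 in β-cat cOE, 10 to 56 in APC/β-cat cKO, 6 to 32 in APC cKO against APC/β-cat cKO, 9 to 54 in β-cat cOE against APC/β-cat cKO, 1 to 23 in APC cKO against β-cat cOE, and 16 to 96 for any difference. A replicate block by title number left 0 members called in any comparison, a median change of 0.69 in APC cKO, and 3, 1 and 14 genes called in the 3 lines against controls, where 6, 2 and 29 were called without it. A block by the sets of numbers in the column names, added after seeing the data, gave 7, 1 and 20. Depth is unknown, and with 4 libraries a genotype the widest interval, that of Adora2a, reaches 4.26-fold either way from its estimate.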

Other observations

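The sample titles carry numbers within each genotype whose meaning the labels do not give. In all 3 Cre lines the library numbered 4 was the highest for 7 of 7 members. Its Adora2a level was 20.3 FPKM in APC cKO, 8.51 FPKM in β-cat cOE and 12.6 FPKM in APC/β-cat cKO. In controls the library numbered 1 was the highest for 7 of 7 members (Adora2a 14.6 FPKM), and the library numbered 4 was the lowest for 5 of them (Adora2a 0.814 FPKM), number 3 being the lowest for the other 2. The library numbered 1 was the lowest of its line in 14 of the 21 combinations of a member and a Cre line. Because the members rose and fell together, these counts over members are not independent.

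Isl1, a transcription factor of direct pathway and cholinergic neurons, ran from 0 to 2.67 FPKM with r = 0.924 to the members, and Six3, a factor of indirect pathway neurons, from 0 to 4.14 FPKM with r = 0.963. The ratio of Drd1 to Drd2 was lowest where the members were highest, 1.25 in APC cKO 3 and 1.45 in Control 1, and highest in Control 4 at 10.3, where Drd2 stood at 0.354 FPKM. On Adora2a the Drd1 line had the larger intercept, 2.57 FPKM against 0.164 FPKM for Drd2. A ratio that falls as the members rise follows from these lines by arithmetic and is no separate result.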
